A study of Mus musculus with 50 samples.

Results

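The cytosolic ribosome is built from ribosomal RNA and one protein from each of a large family of genes, the Rpl genes for the large subunit and the Rps genes for the small subunit. Their mRNAs are short, abundant and largely belong to the TOP class, mRNAs that begin with a C followed by a run of pyrimidines and whose recruitment to ribosomes depends on mTORC1 signalling and on the binding protein Larp1. A ribosomal protein is also the handle of the method used here, because RiboTag mice carry an HA epitope on Rpl22 in cells that express Cre. Ribosomal protein genes were taken by symbol, as every Rpl or Rps gene with a number and at most one of the suffixes a, x or y, plus Rplp0, Rplp1, Rplp2 and Rpsa. The rule found 76 of the 24552 genes in the count table, 46 of the large and 30 of the small subunit. Rpl22 is the tagged protein and is described on its own, so lists below hold the other 75.

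Nucleus accumbens tissue came from C57BL/6 mice 8 to 12 weeks old, homozygous for RiboTag (RT) and carrying D1-Cre (line FK150) or D2-Cre (line ER44), bacterial artificial chromosome transgenes that mark dopamine D1 or D2 receptor neurons. A polyribosome sample (IP) was precipitated with anti-HA antibody from homogenate pooled from 2 mice, and the supernatant that remained served as input, RNA of all cells in the punches. Mice were undefeated controls (Con) or were attacked by a CD1 aggressor 10 min a day for up to 10 days and then sorted by a social interaction test into susceptible (Sus) and resilient (Res) groups. Strain, age and minutes of defeat are those of the sample labels, and the study's methods state them differently. There were 28 IP libraries, of which 4 were D1 Con, 4 were D1 Res, 5 were D1 Sus and 5 came from each D2 group, and 18 inputs, 3 for each line and stress group. A further 4 libraries, labelled Sirt1-KO, were D1-Cre IPs of undefeated RT males with floxed Sirt1, for which the labels gave no age. They were counted in a table that repeats the 4 D1 Con IPs. No IP without tag or without Cre was analysed here, so the level that binds without a tag is unknown.

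Counts on genes ran from 21591075 to 31009626 in the 28 IPs and from 18384265 to 28179940 in the inputs. The libraries labelled Sirt1-KO had between 22174187 and 31785984. Drd1, the D1 receptor gene, stood at 290 to 405 CPM (counts scaled to the size of the library) in D1 IPs and 110.0 to 172 CPM in D2 IPs, and Drd2 stood at 79.95 to 125 CPM and 299 to 390 CPM, so neither line overlapped the other. Sirt1 did not follow its label: it stood at 13.1, 16.6, 14.8 and 14.4 CPM in the 4 D1 Con IPs and at 15.2, 16.2, 13.2 and 10.2 CPM in those labelled Sirt1-KO, a log2 difference of -0.10 ± 0.13 (SE) with an edgeR quasi-likelihood adjusted p of 0.768. The count is over the whole gene and does not isolate the floxed exons, so these are called the libraries labelled Sirt1-KO. D2 Con 1 and D2 Res 1 stood apart from the other IPs, as described with the share of counts below.

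Many ribosomal protein genes have processed pseudogene copies, so reads can match several places. In the annotated transcripts, 59 of the 76 genes shared at least 10% of their 100-base windows with another gene, the median share was 27.0%, and 4 genes shared none, Rpl22 among them. Reads that aligned to more than 1 place, which were left out of gene counts, were 5.02% ± 0.52 (SD, n = 28) in IPs and 10.6% ± 0.37 (SD, n = 18) in inputs. Their part in the results was not tested, and the genes that share little were therefore also counted on their own. Rpl26, with 0 counts in every library, and Rpl30, with a mean count of 2.52, were too low for any test, and Rps27 was tested only in models that held inputs.

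The start of a TOP mRNA is a run of C and T in the DNA. The 30 bases around the RefSeq start, 15 on each side, are shown for the 3 genes that stood lowest and the 3 that stood highest in D1 IP against input among those with a RefSeq entry, and for Rpl22. Capitals mark the longest unbroken run of C and T, and where RefSeq lists 2 starts the one with the longer run is shown, except that both are shown for Rpl22. All are 5′ to 3′ on the strand of the gene, from RefSeq on build GRCm38.p6 (the mm10 assembly of the count tables).
Rps12, chr10:23787195-23787224, minus strand: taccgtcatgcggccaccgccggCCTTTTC
Rps28, chr17:33824548-33824577, minus strand: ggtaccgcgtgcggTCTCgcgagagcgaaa
Rps24, chr14:24490663-24490692, plus strand: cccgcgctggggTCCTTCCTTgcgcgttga
Rpl15, chr14:18270972-18271001, minus strand: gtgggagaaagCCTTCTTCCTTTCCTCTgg
Rpl19, chr11:98026909-98026938, plus strand: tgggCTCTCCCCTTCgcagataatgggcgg
Rpl5, chr5:107900513-107900542, plus strand: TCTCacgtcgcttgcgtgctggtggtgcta
Rpl22, first listed start, chr4:152324421-152324450, plus strand: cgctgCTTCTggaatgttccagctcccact
Rpl22, second listed start, chr4:152325711-152325740, plus strand: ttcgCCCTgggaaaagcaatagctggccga

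Of the 76 genes, 56 had a RefSeq entry, and their longest run had a median of 7 bases, taking the start with the longest run where several were listed. A run of at least 8 bases was present at 25 of them (44.6%), against 1772 of the 11850 tested genes with an entry. Rpl15 had the longest run of the genes printed, 17 bases, and Rps28 and Rpl5 had 4 each. The length of the run did not order the genes between IP and input, with a Spearman rho of 0.015 in the D1 line and 0.033 in the D2 line across 54 genes, which share libraries and are not independent. These letters describe the annotated starts only and are not a measure of Larp1 binding.

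Ribosomal protein mRNAs made up less of the IP than of the input, in both lines and every stress group. They took 0.646% ± 0.044 of the counts on genes in IPs (SD, n = 28, from 0.572% to 0.782%) and 0.914% ± 0.056 in inputs (SD, n = 18, from 0.819% to 1.05%), and no IP reached the lowest input. The share was 0.642% ± 0.033 in D1 IPs (SD, n = 13) and 0.649% ± 0.053 in D2 IPs (SD, n = 15), a difference smaller than the spread between libraries. The large subunit contributed 0.422% in IPs and 0.562% in inputs, and the small subunit 0.224% and 0.353%. Genes of the mitochondrial ribosome, a separate machine with 78 genes in the table, lay the other way, at 0.181% ± 0.009 of counts in IPs (SD, n = 28) and 0.157% ± 0.007 in inputs (SD, n = 18). D2 Con 1 (0.782%) and D2 Res 1 (0.749%) were above the other 26 IPs, which spanned 0.572% to 0.696%, and they were also the highest for mitochondrial ribosomal genes, at 0.207% and 0.200% against 0.166% to 0.194%. Results on IPs are therefore given with and without them where they differ.

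**Figure D1:**
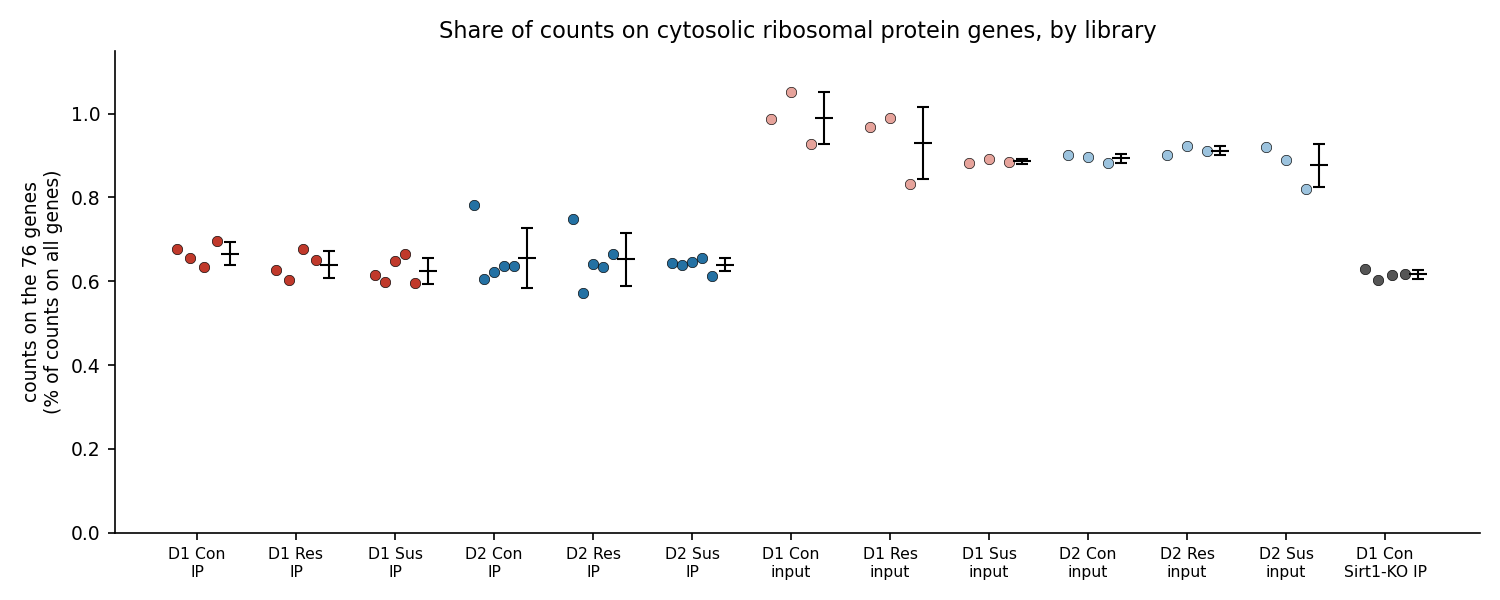
Share of counts on all genes that fell on the 76 ribosomal protein genes (y axis, percent) in each library, with 1 point a library and the mean ± SD beside each group. The inputs lie between 0.819% and 1.05%, all above the IPs, and D2 Con 1 (0.782%) and D2 Res 1 (0.749%) are the highest IPs.

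IP against input asks which mRNAs were on HA-tagged polyribosomes of one neuron type relative to all RNA of the tissue. In bulk samples a difference in the cells that contribute RNA and a difference in RNA per cell cannot be told apart, and here neither can ribosome loading of a given mRNA. In the D1 line, 56 of the 73 genes tested were lower in IP and 11 higher at an adjusted p under 0.05 (edgeR quasi-likelihood test, Benjamini-Hochberg), while 42.7% of all genes tested were lower and 39.2% higher. The median log2 fold change was -0.46, against -0.04 over all genes. In the D2 line, 56 were lower and 10 higher with a median of -0.46, against 44.9% lower, 37.8% higher and a median of -0.08 over all genes. Of the 73, 66 passed in both lines, 56 lower and 10 higher, and none passed in opposite directions. The lines use separate IPs and separate inputs, but the model shares one estimate of spread.

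With the fold change also over 1.5, 26 of the 73 genes were lower and 0 higher in the D1 line, where 29.3% and 13.8% of all genes passed. For the D2 line 24 were lower and 0 higher, where 30.8% and 12.8% passed. The numbers lower were thus little above the share of all genes in both lines. In the D1 line the IPs did not overlap the inputs at 43 genes that were lower (24.4% of all genes) and 4 that were higher (23.9%). In the D2 line this held at 34 lower (22.3%) and 3 higher (21.9%). With the number of the homogenate as a block, 55 were lower and 7 higher in the D1 line and 54 and 11 in the D2 line. That fit held only the 18 pairs of IP and input with the same number. The shares of all genes given above are from all libraries and do not apply to it. Scaling by total counts moved the median of all genes to -0.23 in the D1 line and -0.21 in the D2 line, and split all calls 34.3% higher to 65.7% lower and 37.1% to 62.9%, where the main scaling gave 47.9% to 52.1% and 45.8% to 54.2%. Relative to the median of all genes, the median of the ribosomal protein genes was -0.42 in the D1 line and -0.37 in the D2 line under both scalings.

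The genes of the small subunit were the more uniform group. Of its 30 genes, 28 were lower in IP in each line and 1 was higher, with a median log2 fold change of -0.51 in both lines. Rps29, a zinc-binding protein of the head of the small subunit and a product of only 56 codons, was the lowest. It had 30.1 CPM at the lowest, 42.2 at the median and 52.6 at the highest in D1 IPs (n = 13) and 128, 137 and 159.9 CPM in D1 inputs (n = 9). In D2 IPs (n = 15) it had 21.9, 46.9 and 63.8 CPM, and in D2 inputs (n = 9) 125, 139.8 and 156 CPM. The IPs lay far below the inputs in both lines. Its log2 fold change was -1.75 ± 0.10 (SE, adjusted p = 2.11e-19) in the D1 line and -1.59 ± 0.10 (SE, adjusted p = 9.84e-19) in the D2 line, by the edgeR quasi-likelihood test.

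Rps12 and Rps28, also of the small subunit, followed. Rps12 ranged over 21.6, 25.5 and 28.9 CPM in D1 IPs and 54.9, 69.05 and 73.2 CPM in D1 inputs (lowest, median, highest), and over 20.5, 25.8 and 32.7 CPM in D2 IPs and 56.5, 69.7 and 79.4 CPM in D2 inputs. Rps28 ranged over 12.9, 20.2 and 26.1 CPM in D1 IPs and 43.2, 47.7 and 55.4 CPM in D1 inputs, and over 11.6, 22.3 and 32.1 CPM in D2 IPs and 43.03, 53.5 and 56.1 CPM in D2 inputs. No IP of either gene reached an input of its line. The log2 fold change of Rps12 was -1.37 ± 0.07 in the D1 line (SE, edgeR adjusted p = 1.23e-21) and -1.39 ± 0.06 in the D2 line (1.51e-22), and that of Rps28 was -1.28 ± 0.11 (2.63e-14) and -1.20 ± 0.10 (5.36e-14). Rps24, whose loss of function causes a congenital anaemia, had 72.99 to 92.6 CPM in D1 IPs and 174 to 200.4 CPM in D1 inputs, a log2 fold change of -1.20 ± 0.05 (SE, edgeR adjusted p = 1.28e-24). Rps27 passed at -1.14 ± 0.22 in the D2 line (SE, edgeR adjusted p = 1.48e-05) and at -1.14 ± 0.24 in the D1 line (3.17e-05), but it rested on few reads, 0.12 to 0.64 CPM in D2 IPs and 0.37 to 1.62 CPM in D2 inputs, which overlapped.

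Rps6, the substrate of the S6 kinases and a common readout of mTORC1 activity in neurons, was close to the input. It ranged from 103 to 122 CPM in D1 IPs and from 122 to 141 CPM in D1 inputs, with log2 fold changes of -0.21 ± 0.04 in the D1 line and -0.17 ± 0.03 in the D2 line (SE), both past the edgeR test. Rpsa, which is also known as the laminin receptor, ranged from 202 to 232 CPM in D1 IPs and from 273 to 353 CPM in D1 inputs, without overlap, and its log2 fold changes were -0.55 ± 0.04 and -0.54 ± 0.03 (SE). Rps23, near the decoding centre, was the only small subunit gene that was higher in IP, by 0.09 ± 0.04 in the D1 line (SE, edgeR adjusted p = 0.0473) and 0.15 ± 0.04 in the D2 line (SE, edgeR adjusted p = 0.00105). That call was not kept when library sizes were set by total counts or when genes with a mean under 50 counts were left out, in either line.

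The large subunit was divided. Of its 43 genes tested, 28 were lower in each line, 10 were higher in the D1 line and 9 in the D2 line, and the medians were -0.39 and -0.40. Rpl7 stood highest, with 165, 179 and 195 CPM in D1 IPs and 125, 136 and 141 CPM in D1 inputs (lowest, median, highest), and with 169.7, 183 and 210.01 CPM in D2 IPs and 122, 135 and 145 CPM in D2 inputs. Each IP was above every input of its line. The log2 fold change was 0.41 ± 0.04 in the D1 line (SE, edgeR adjusted p = 6.29e-14) and 0.44 ± 0.03 in the D2 line (SE, edgeR adjusted p = 4.39e-15).

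Rpl19 and Rpl5 followed the same order. Rpl19 had 190.2, 203 and 222 CPM in D1 IPs against 148, 164.5 and 169 CPM in D1 inputs, a log2 fold change of 0.34 ± 0.04 (SE, edgeR adjusted p = 8.8e-11), and the D2 line gave 0.34 ± 0.04 (3.98e-11). Rpl5, which carries 5S ribosomal RNA into the large subunit together with Rpl11, had 145, 164 and 173 CPM in D1 IPs against 126, 129 and 143 CPM in D1 inputs, a log2 fold change of 0.29 ± 0.03 (SE, edgeR adjusted p = 6.04e-10), and 0.32 ± 0.03 in the D2 line (2.86e-11). IPs and inputs did not overlap at either gene in either line. Rpl11, its partner, was lower in IP, at -0.34 ± 0.04 in the D1 line and -0.31 ± 0.04 in the D2 line (SE), both past the edgeR test. Rpl15 had 111, 124 and 135 CPM in D1 IPs against 88.6, 96.2 and 103 CPM in D1 inputs, at 0.36 ± 0.05 (SE, edgeR adjusted p = 9.69e-09). In the D2 line, where the groups overlapped, Rpl15 was at 0.29 ± 0.05 (SE, edgeR adjusted p = 5.21e-07). Rpl9 overlapped between IP and input in both lines and passed at 0.20 ± 0.05 and 0.18 ± 0.05 (SE, edgeR adjusted p = 0.000798 and 0.00222).

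Rpl7, Rpl15, Rpl19 and Rpl5 were higher in both lines also under scaling by total counts and with genes of a mean under 50 counts left out. The other genes called higher under the main scaling, Rpl9, Rpl6, Rpl3, Rpl27, Rpl24 and Rps23 in both lines and Rpl4 in the D1 line, had log2 fold changes of 0.07 to 0.20 and were not called higher under either of these settings. Of the 16 genes with under 10% shared windows, 13 were lower in each line, 1 was higher in the D1 line and 0 in the D2 line, and their medians were -0.70 and -0.69. This selection was made after the data were seen.

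The ribosomal stalk, which recruits translation factors to the large subunit, gave unlike values for its 3 proteins. Rplp1 ranged from 97.4 to 139 CPM in D1 IPs and from 179.7 to 229 CPM in D1 inputs, at -0.85 ± 0.06 in the D1 line and -0.80 ± 0.06 in the D2 line (SE). Rplp0, the protein that anchors the stalk, was at -0.37 ± 0.04 and -0.43 ± 0.03 (SE), and both genes passed the edgeR test in both lines. Rplp2 did not pass, at -0.01 ± 0.06 and 0.02 ± 0.06 (SE, edgeR adjusted p = 0.844 and 0.75). Other genes that did not pass in the D1 line were Rpl18, Rpl34, Rpl7a, Rpl8 and Rps27a, which encodes ubiquitin fused to a small subunit protein. Rpl32 was the lowest of the large subunit, at 30.1, 36.9 and 42.4 CPM in D1 IPs and 74.8, 82.5 and 86.3 CPM in D1 inputs, with log2 fold changes of -1.15 ± 0.06 in the D1 line and -1.15 ± 0.06 in the D2 line (SE, edgeR adjusted p = 1.34e-20 and 3.11e-21).

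**Figure D2:**
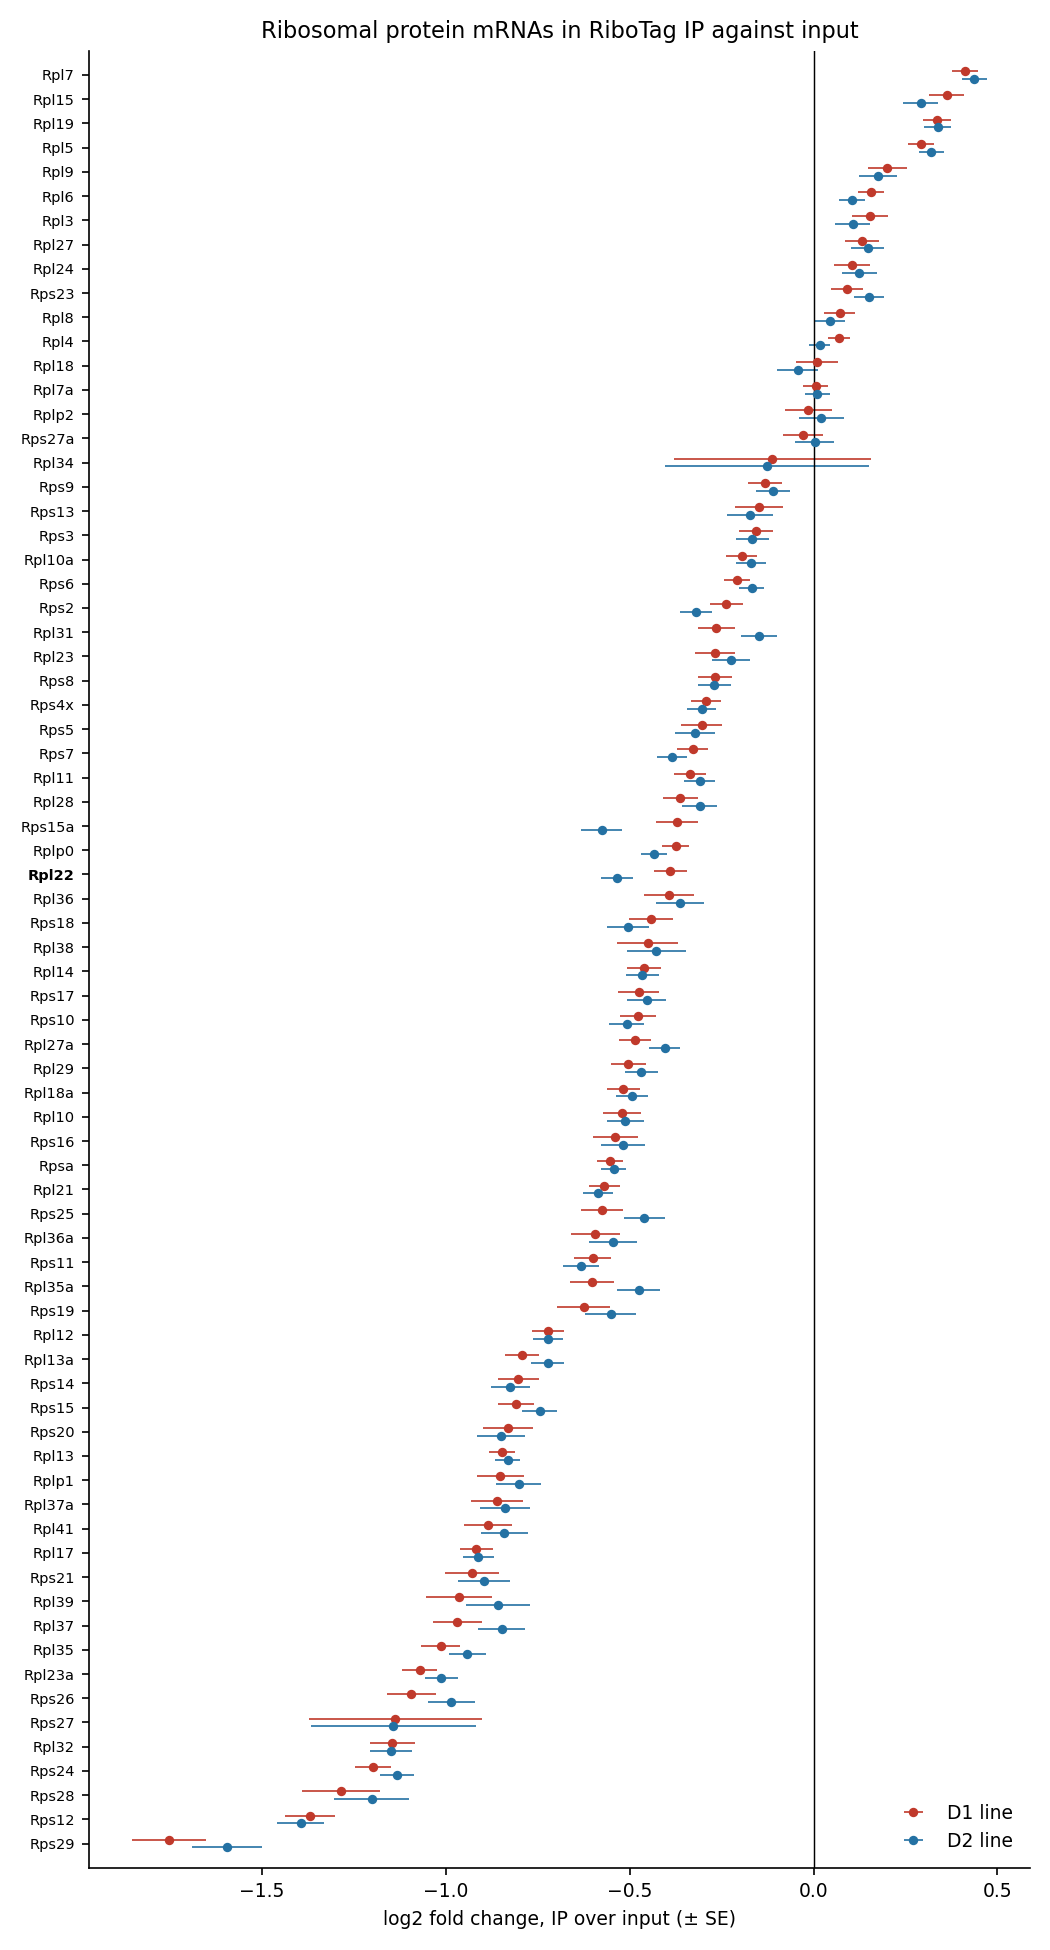
Log2 fold change of IP over input with its SE (x axis) for the 74 ribosomal protein genes tested, Rpl22 included in bold, in the D1 and D2 lines. The genes run from Rps29 at -1.75 and -1.59 to Rpl7 at 0.41 and 0.44, and the points of the lines lie close together at most genes.

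The order of the genes followed the length of the protein they encode. Across the 73 genes, the log2 fold change of IP over input had a Spearman rho with coding length of 0.59 in the D1 line and 0.55 in the D2 line, and with the mean count 0.44 in each. The same measure was 0.15 and 0.18 with the share of windows that match another gene. For the 78 mitochondrial ribosomal genes rho with coding length was 0.39 in both lines, and for the 14353 tested genes with an annotated coding length it was -0.06 and -0.01. Genes of one library share its RNA quality and depth, so these values are descriptions. Of the 17 genes under 120 codons, 15 were lower and 0 higher in each line, with medians of -0.86 and -0.84. All 509 tested genes of such length had medians of -0.15 and -0.16, and 46% and 49.9% of them were lower. Of the 35 genes from 120 to under 200 codons, 28 were lower and 5 higher in each line, with medians of -0.48 and -0.47. All 1216 tested genes of such length had medians of 0.05 and -0.05, and 37.1% and 42.8% of them were lower. Of the 21 genes of 200 codons or more, 13 were lower in each line and 6 in the D1 line and 5 in the D2 line were higher, with medians of -0.21 and -0.17. All 12628 tested genes of such length had medians of 0.0014 and -0.04, and 41.2% and 43.2% of them were lower. Rpl41, the shortest at 25 codons, stood at 53.6 CPM in the median D1 IP and 95.7 CPM in the median D1 input.

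**Figure D3:**
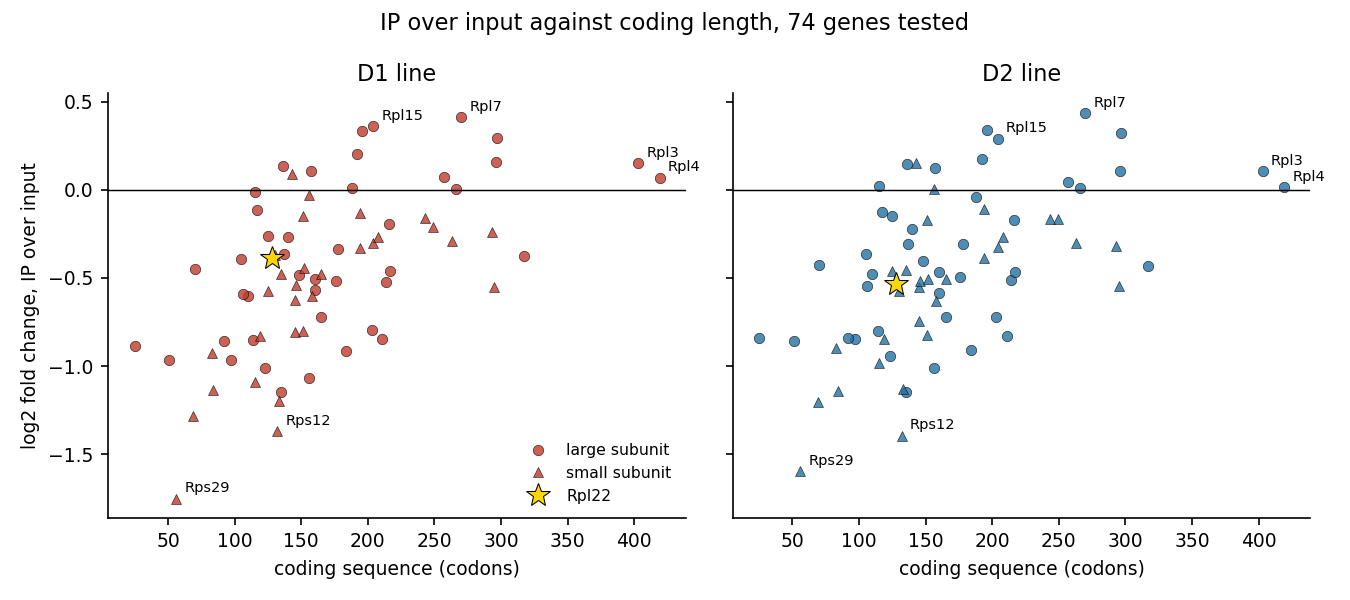
Log2 fold change of IP over input (y axis) against coding length in codons (x axis) for 74 ribosomal protein genes in the D1 line (left) and D2 line (right), with circles for the large subunit, triangles for the small subunit and a star for Rpl22. Genes under 120 codons had median log2 fold changes of -0.86 and -0.84, and Rpl7, the gene highest in IP in both lines, has 270 codons.

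Inputs held RNA of all cells, and markers of other cells were lower in IP. The 6 astrocyte markers summed to 330 to 555 CPM in D1 IPs and 3667 to 4038 CPM in D1 inputs, and to 262 to 525 CPM and 3495 to 4244 CPM in the D2 line. The 6 oligodendrocyte markers summed to 494 to 786 CPM in D1 IPs and 3464 to 5398 CPM in D1 inputs. Microglial markers summed to 9.82 to 15.99 CPM and 204 to 253 CPM, and endothelial markers to 3.80 to 6.34 CPM and 63.9 to 71.4 CPM. All 22 of these markers were lower in IP in both lines, none was at 0 in all libraries, and the 9 markers of medium spiny neurons, the projection neurons targeted here, summed to 4473 to 7215 CPM in D1 IPs and 1765 to 2954 CPM in D1 inputs. Their part in the lower level of ribosomal protein mRNAs was not tested.

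Ribosomal proteins with symbols outside the rule were also found in both directions. Fau, a fusion of a ubiquitin-like protein with a small subunit protein, was higher in IP, at 0.45 ± 0.07 in the D1 line and 0.44 in the D2 line, and Rack1, a signalling scaffold on the small subunit, at 0.18 ± 0.03 and 0.13. Rps3a1, a small subunit protein, was lower at -0.65 ± 0.04 and -0.65. These 3 genes passed the edgeR test in both lines. Of 9 paralogs, 6 were tested, 3 were higher and 1 lower in each line, and Rpl22l1, the paralog of the tagged protein, did not pass, at 0.16 ± 0.13 in the D1 line (SE, edgeR adjusted p = 0.28).

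Other genes of the translation machinery were mostly higher in IP. Of 36 initiation factors tested, 30 were higher and 3 lower in the D1 line and 29 and 4 in the D2 line, with medians of 0.57 and 0.50, led by Eif3b at 0.85 ± 0.03 in the D1 line. Of 7 elongation factors, 6 were higher in the D1 line and 5 in the D2 line and 0 were lower, led by Eef1a2, the form of elongation factor 1A that neurons use, at 1.08 ± 0.04 and 0.88 ± 0.04 (SE). Of 22 ribosome assembly factors, 20 and 21 were higher and 1 lower, led in the D1 line by Rrp1 at 1.09 ± 0.03 (SE). Of 78 mitochondrial ribosomal genes, 67 were higher and 4 lower in the D1 line, and 65 and 4 in the D2 line, with medians of 0.38 and 0.36. Of 16 other TOP mRNAs, 10 were higher and 3 lower in the D1 line and 9 and 3 in the D2 line, with Npm1 higher at 0.56 ± 0.03 and Hnrnpa1 lower at -1.24 ± 0.11 in the D1 line (SE). Of 12 regulators of TOP translation, 6 were higher and 5 lower in the D1 line and 7 and 4 in the D2 line, and Rps6kb2, an S6 kinase, was lowest at -2.33 ± 0.09 in the D1 line (SE). These lists were chosen with earlier results known, and the background beside them is 39.2% higher and 42.7% lower in the D1 line.

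Within each stress group the result had the same direction. The median log2 fold change of the 73 genes lay between -0.39 (D2 Con) and -0.51 (D1 Res) in the 6 groups of line and stress, with 51 to 54 genes lower and 4 to 8 higher at an adjusted p under 0.05 by the edgeR test. Of all genes tested, 35.7% to 37.8% were lower and 32.2% to 33.9% higher in these groups. The difference between the lines in IP over input was itself tested, and 0 of 73 genes passed the edgeR test (background 25.5%), with 1 at an unadjusted p under 0.05 (background 36.3%) and 0 by DESeq2. The lowest p was that of Rps15a, at -0.21 ± 0.08 (SE, D2 minus D1, edgeR adjusted p = 0.0529). Without D2 Con 1 and D2 Res 1 it was called at an adjusted p under 0.05, the only gene that was. Leaving out single libraries gave 0 or 1 called gene.

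Per kilobase of the principal annotated transcript, ribosomal protein mRNAs spanned a wide range in IPs. The highest median levels were those of Rpl9 (282 CPM per kb), Rpl19 (271), Rpl3 (266), Rplp1 (229) and Rpl4 (218), and in inputs Rplp1 was first at 409 CPM per kb. The lowest were Rpl26 at 0, Rpl30 at 0.14, Rpl34 at 0.81, Rps27 at 0.82 and Rps20 at 9.19 CPM per kb, the last divided by an annotated transcript of 3706 bases that lowers its level. The order of levels was alike in IPs and inputs, with a Spearman rho of 0.85 over the 76 genes. Of the lowest, Rpl30, Rps27 and Rpl26 shared 57.8%, 40.1% and 19.1% of their windows with another gene, and Rpl34 and Rps20 shared 5.8% and 5.9%. Reads that match several places were not counted, so levels of genes that share many windows are uncertain against those of other genes.

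Rpl22, the tagged protein itself, was lower in IP than in input in both lines. The gene lies at chr4:152325742-152334071 on the plus strand (GENCODE vM21, GRCm38), and none of its 100-base windows occurs in another gene. It had 35.7, 38.4 and 45.6 CPM in D1 IPs (lowest, median and highest, n = 13) and 49.04, 50.97 and 54.8 CPM in D1 inputs (n = 9). In D2 IPs it had 27.8, 35.5 and 38.9 CPM (n = 15) and in D2 inputs 45.7, 51.95 and 54.8 CPM (n = 9). No IP reached an input in either line. The log2 fold change was -0.39 ± 0.04 in the D1 line (SE, edgeR adjusted p = 2.46e-10) and -0.53 ± 0.04 in the D2 line (SE, edgeR adjusted p = 1.45e-14), near the medians of the other 73 genes. In exact two-sided permutation tests these differences had p = 4.02e-06 and 1.53e-06, adjusted to 3.02e-05 and 2.29e-05 over the 15 comparisons made for Rpl22. These tests pooled the stress groups and took all libraries as independent, although IPs and inputs of the same number come from one homogenate. With no overlap, each p is the smallest that such a test can give at these group sizes. In IPs Rpl22 ranked 47 of 76 genes by level per kb, at 77.3 CPM per kb, and in inputs 51, at 108 CPM per kb. Counts on Rpl22 join the unmodified and the tagged transcript, which differ in the last exon and were not separated here.

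Rpl22 was also slightly higher in D1 than in D2 IPs. Modelled with the 28 IPs alone, it had 33.9, 36.8 and 43.6 CPM in D1 IPs and 26.5, 34.2 and 37.4 CPM in D2 IPs, which overlapped. The log2 difference averaged over stress groups was 0.12 ± 0.05 (SE, edgeR adjusted p = 0.0357), where 19.6% of all genes passed as higher in D1. A permutation test with 100000 resamples gave p = 0.0101, or 0.0503 adjusted over the 15 comparisons. Rpl22 passed the edgeR test in 28 of 35 alternative settings, with adjusted p between 0.0165 and 0.0796. It did not pass within any stress group, at 0.11 ± 0.08 in Con, 0.14 ± 0.08 in Res and 0.12 ± 0.08 in Sus (SE, edgeR adjusted p = 0.421, 0.26 and 0.322). The difference between lines in IP over input did not pass either, at -0.14 ± 0.06 (SE, D2 minus D1, edgeR adjusted p = 0.0879). In inputs, Rpl22 did not pass between lines, at -0.01 ± 0.03 (SE, edgeR adjusted p = 0.995).

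Rpl22 passed no edgeR test between stress groups. In D1 IPs it was at -0.04 ± 0.08 for Sus against Con and -0.07 ± 0.08 for Res against Con, and in D2 IPs at -0.05 ± 0.08 and -0.10 ± 0.08 (log2, SE). In inputs it was at -0.07 ± 0.04 for Sus against Con (SE, edgeR adjusted p = 0.979), where an exact permutation test over 6 against 6 libraries gave p = 0.0433 and 0.162 adjusted over the 15 comparisons. In the libraries labelled Sirt1-KO it had 41.9, 35.96, 40.6 and 33.9 CPM and in D1 Con IPs 37.3, 42.3, 33.8 and 38.5 CPM, which overlapped, with a log2 difference of 0.01 ± 0.09 (SE, edgeR adjusted p = 0.979).

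**Figure D4:**
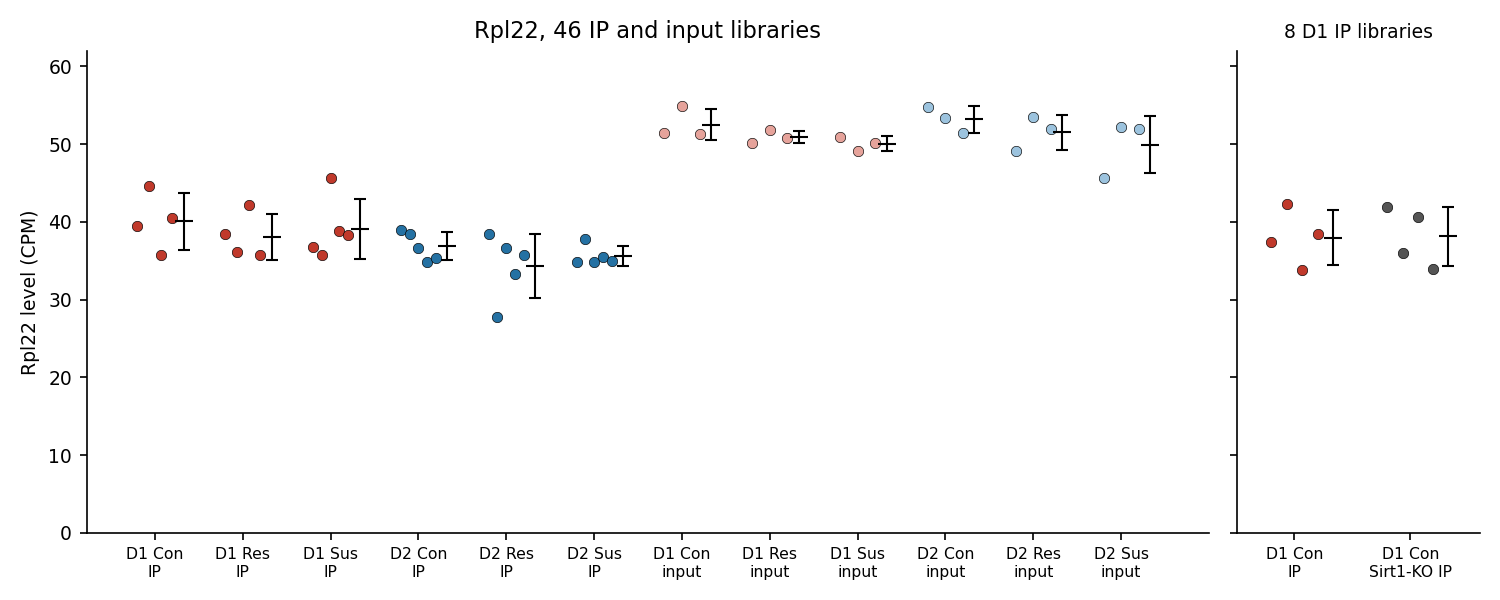
Level of Rpl22 in CPM (y axis, from 0) in the 46 IP and input libraries (left) and in the 8 D1 IPs of the Sirt1 table (right), with 1 point a library and the mean ± SD beside each group. The 4 D1 Con IPs are in both panels, scaled within each set, and IPs span 27.8 to 45.6 CPM on the left, below all inputs.

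D1 against D2 IP asks whether the neuron types differ in these mRNAs. They were close. In Con libraries 0 of 72 genes passed the edgeR test, against 14.0% of all genes tested. At an unadjusted p under 0.05 there were 0 as well (27.0% of all genes), and DESeq2 called 0. Averaged over Con, Res and Sus, 2 of 72 passed, 1 in each direction, against 40.8% of all genes (19.6% higher and 21.3% lower in D1), and neither changed over 1.5-fold. Another tool, DESeq2, also called 2. No gene separated the lines without overlap, where 1.9% of all genes did so higher in D1 and 0.921% lower.

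Rps15a, a small subunit protein, was higher in D1 IPs. It had 62.95, 74.01 and 77.6 CPM in D1 IPs and 46.96, 65.4 and 75.3 CPM in D2 IPs (lowest, median, highest), which overlapped. Its log2 difference was 0.15 ± 0.05 (SE, edgeR adjusted p = 0.0229), and it passed in 35 of 35 alternative settings, at 0.12 to 0.18. Rpl31, a large subunit protein at the mouth of the exit tunnel, was lower in D1 IPs, with 111, 121 and 142 CPM against 113, 129 and 162 CPM, a log2 difference of -0.13 ± 0.05 (SE, edgeR adjusted p = 0.0216). The highest D2 libraries for Rpl31 were D2 Con 1 and D2 Res 1, and without both it did not pass. Then 5 genes passed (41.4% of all genes did), all higher in D1, namely Rps15a (0.18), Rps2 (0.12), Rpl18 (0.11), Rplp0 (0.08) and Rps7 (0.08).

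The count rested on single libraries. Leaving out D2 Res 2 alone, the IP with the lowest share of these genes, gave 8 called genes (39.1% of all genes). Leaving out D2 Con 2 gave 4 (39.3%), and leaving out D1 Con 3 or D1 Res 1 gave 1 (38.4% and 37.8%). In D1 IPs the astrocyte markers summed to 330 to 555 CPM against 262 to 525 CPM in D2 IPs, and all 6 passed as higher in D1. Markers of cholinergic interneurons, which also express D2 receptors, summed to 7.62 to 29.1 CPM in D1 IPs and 56.2 to 121 CPM in D2 IPs. Their part in these small differences was not tested.

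Defeat stress gave no ribosomal protein gene past the adjusted threshold in any comparison. By the edgeR test, 0 of 72 genes passed in each of the 6 comparisons of IPs, where 0.0% of all genes passed in 5 of them and 0.00703%, 1 gene, in D1 Res against Con. DESeq2 also called 0 of the 72. At an unadjusted p under 0.05, D1 IPs gave 2 genes for Sus against Con (background 5.34%), 2 for Res against Con (2.11%) and 2 for Sus against Res (4.23%). The D2 IPs gave 2 (3.68%), 0 (3.02%) and 1 (1.66%) in the same order. The lowest p in D1 IPs for Sus against Con was that of Rpl10a. It had 55.3, 50.1, 49.1 and 56.3 CPM in Con and 47.7, 45.5, 47.3, 48.4 and 46.2 CPM in Sus. Its log2 difference was -0.16 ± 0.07 (SE) with an unadjusted p of 0.0195 and an edgeR adjusted p of 0.846. Rps9 was next at -0.14 ± 0.07 (SE). For Res against Con, Rpl39 was at -0.37 ± 0.17 and Rpl36 at -0.25 ± 0.12, and for Sus against Res, Rplp0 was at -0.14 ± 0.06 and Rps2 at -0.16 ± 0.08 (SE). In D2 IPs, Rpl3 was at -0.15 ± 0.07 and Rpl13 at -0.12 ± 0.06 for Sus against Con (SE), and Rpl3 was at -0.14 ± 0.07 for Sus against Res (SE).

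The small differences under stress had mostly one sign. In D1 IPs, 69 of 72 genes had a log2 difference below 0 for Sus against Con, with a median of -0.09, where 50.2% of all genes were below 0. For Res against Con 65 were below 0 with a median of -0.06 (50.2% of all genes), and for Sus against Res 45 with a median of -0.02 (49.4%). In D2 IPs 69 were below 0 for Sus against Con with a median of -0.07 (47.3%) and 62 for Res against Con with a median of -0.05 (50.4%). Scaled by total counts these were 55, at a median of -0.04, and 44, at a median of -0.0064. Both comparisons of a line share its Con libraries, so they are not separate evidence. Genes of one library also share its RNA quality and depth. Numbers below 0, here and in later comparisons, are therefore descriptions and not independent results. The D2 values moved with single libraries. Without D2 Con 1 and D2 Res 1, Sus against Con had 41 of 72 below 0 and a median of -0.01, and Res against Con had 58 below 0 and a median of -0.03. The median for Res against Con was 0.01 without D2 Con 1 alone, -0.10 without D2 Res 1 alone and -0.0047 without D2 Res 2 alone. Without the pair, Sus against Res in D2 IPs went from 45 below 0, at a median of -0.02, to 16 below 0, at a median of 0.04. D2 Con 1 and D2 Res 1 enter no D1 comparison except through scaling and the shared spread. The D1 numbers below 0, which were 69, 65 and 45 also without them, could therefore hardly move. In D1 IPs the median for Sus against Con stayed between -0.11 and -0.06 when each IP was left out in turn.

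The summed astrocyte markers were 316 to 448 CPM in D1 Con, 365 to 439.8 CPM in D1 Res and 451 to 529 CPM in D1 Sus, so that D1 Sus lay above both and D1 Res lay within D1 Con. The trend of each library with transcript length, taken as the Spearman rho across all genes between transcript length and the difference of the library from the mean of the IPs, was -0.26 to -0.04 in D1 Con, -0.24 to 0.02 in D1 Res and -0.09 to 0.14 in D1 Sus, which overlapped. D2 Con 1, at -0.40, was the lowest of the 28, and D2 Res 1 was at -0.24. Their part in the sign of the ribosomal protein genes was not tested. The difference between lines in the stress effect was tested, and 0 of 72 genes passed the edgeR test for Sus against Con and for Res against Con (0.0% of all genes in both). At an unadjusted p under 0.05 there were 0 genes in each (background 1.82% and 2.36%), and DESeq2 called 0.

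In inputs, 0 of 73 genes passed between stress groups by the edgeR test (0.0% of all genes) or DESeq2, and at an unadjusted p under 0.05 the counts were 1 for Sus against Con (4.47% of all genes), 1 for Res against Con (3.23%) and 2 for Sus against Res (5.54%). Rplp0 was at -0.08 ± 0.04 for Sus against Con and -0.10 ± 0.04 for Sus against Res (SE). Rps27 was at -0.80 ± 0.29 for Res against Con (SE), with levels under 2 CPM in every input. The number of genes below 0 was 64 of 73 for Sus against Con (median -0.04, 50.2% of all genes), 27 for Res against Con (median 0.01, 47.5%) and 70 for Sus against Res (median -0.04, 50.5%). Scaled by total counts, all 73 were below 0 for Sus against Con and 58 for Res against Con, with 18 and 2 at an unadjusted p under 0.05, so the count of signs in inputs depended on the scaling. Between inputs of the D1 and D2 lines, 0 of 73 genes passed the edgeR test (0.0202% of all genes passed), with 0 at an unadjusted p under 0.05 (5.2% of all genes) and 0 by DESeq2. The lowest p was that of Rps28, at -0.09 ± 0.05 (SE).

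The libraries labelled Sirt1-KO had lower counts of ribosomal protein mRNAs than D1 Con IPs. The share was 0.666% ± 0.027 (SD, n = 4, 0.634% to 0.696%) in D1 Con and 0.616% ± 0.010 (SD, n = 4, 0.604% to 0.629%) in the libraries labelled Sirt1-KO, without overlap. The latter lay within the range of D1 Res IPs (0.602% to 0.678%) and of D1 Sus IPs (0.596% to 0.664%). The same 4 D1 Con IPs were the reference in the D1 stress comparisons above, where most of these genes were also below 0. Of 72 genes, 4 were lower and 0 higher by the edgeR test, against 1.04% lower and 0.616% higher of the 13626 genes tested, and none changed over 1.5-fold. Over the 72 genes the median log2 difference was -0.06 and 54 were below 0, where 6807 of the 13626 genes were. The groups did not overlap at 7 genes, all lower in the libraries labelled Sirt1-KO (Rpl3, Rpl7, Rpl8, Rpl10, Rps7, Rps13 and Rps15a), where 5.11% of all genes were lower without overlap and 4.44% higher.

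Rpl3, which lies next to the peptidyl transferase centre, differed most. It had 339, 379, 329 and 371 CPM in D1 Con and 272, 219, 295 and 198 CPM in the libraries labelled Sirt1-KO, a log2 difference of -0.53 ± 0.11 (SE, edgeR adjusted p = 0.0386). Rps15a had 62.6, 72.3, 72.2 and 75.7 CPM in D1 Con and 54.4, 57.5, 56.4 and 50.9 CPM in the libraries labelled Sirt1-KO, at -0.37 ± 0.07 (SE, edgeR adjusted p = 0.0291). Rps13 had 46.1, 43.9, 41.7 and 46.9 CPM and 37.1, 37.1, 36.2 and 33.05 CPM, at -0.31 ± 0.06 (SE, edgeR adjusted p = 0.0376). Rpl10, which is added late in large subunit assembly and is needed for the subunits to join, had 109.5, 109.6, 102 and 113 CPM and 88.9, 95.6, 90.3 and 88.8 CPM, at -0.25 ± 0.05 (SE, edgeR adjusted p = 0.0386). At each of the 4 genes every D1 Con library was above every library labelled Sirt1-KO.

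These calls were near the threshold. Leaving out each of the 8 libraries in turn gave 0 called genes for 5 of them (D1 Con 2, 3 and 4 and Sirt1-KO 1 and 3). It gave 1 without D1 Con 1 (Rps15a) or without Sirt1-KO 4 (Rpl3), and 4 without Sirt1-KO 5. Calls over all genes ran from 41 (0.299%) to 1020 (7.41%), the latter without Sirt1-KO 5. The log2 difference of Rpl3 stayed between -0.63 and -0.41 in 14 settings, that of Rps15a between -0.42 and -0.32, that of Rps13 between -0.35 and -0.28 and that of Rpl10 between -0.29 and -0.23. In the same libraries the 9 markers of medium spiny neurons summed to 5048 to 6823 CPM in D1 Con and 3700 to 5416 CPM in those labelled Sirt1-KO. The 6 astrocyte markers summed to 312 to 446 CPM and 456 to 572 CPM without overlap, although 5 of the 6 had a log2 difference below 0, and the 4 cholinergic markers to 9.41 to 11.2 CPM and 4.00 to 8.18 CPM. Their part in the result was not tested, and genotype and the set in which libraries were made cannot be told apart.

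**Figure D5:**
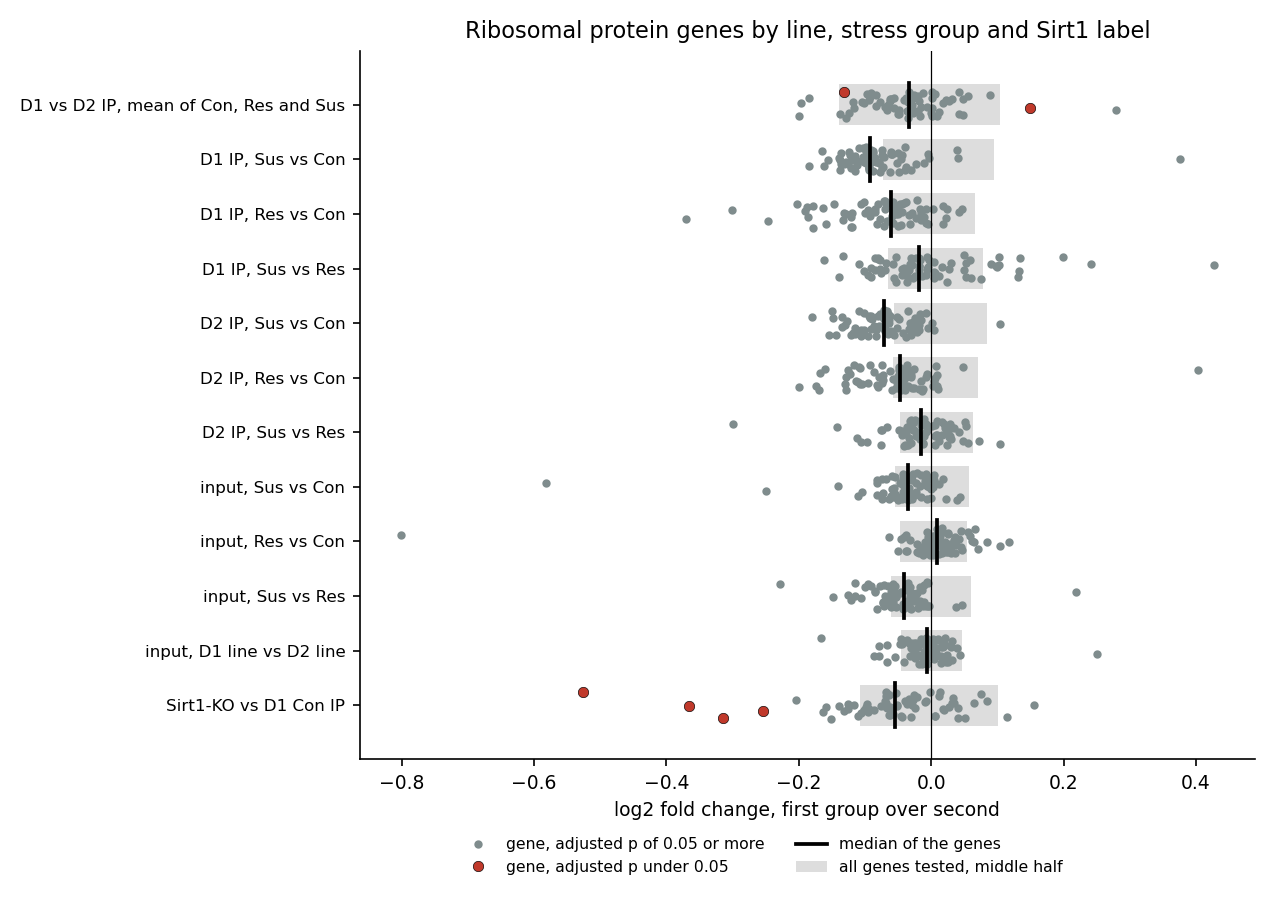
Log2 fold change (x axis) of the ribosomal protein genes without Rpl22, 1 point a gene, in comparisons of line, stress group and Sirt1 label (72 genes for IPs and 73 for inputs), with their median as a black line and the middle 50% of all genes tested in grey. Red points passed the edgeR test, Rps15a and Rpl31 between the lines and Rpl3, Rps15a, Rps13 and Rpl10 in the libraries labelled Sirt1-KO.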

How the data were processed

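RNA was sequenced after poly-A selection with a stranded kit. Per the labels and the methods, the authors trimmed reads with cutadapt, checked them with FastQC, aligned them to mm10 with STAR and counted them per gene with HTSeq (the counter of the Sirt1 table is not given in the sources used here), and the deposited values are raw read counts. Software versions, annotation and strand setting are not given in the sources used here, so overlapping genes cannot be told apart. Libraries with an RNA integrity number under the limit in the methods had been excluded, and values of RNA integrity were not used here.

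Counts were tested with edgeR 4.0.16 (quasi-likelihood, TMM scaling, R 4.3.3, limma 3.58.1) on all genes that passed filterByExpr (a count of 10 at the typical depth, 15 in total), with Benjamini-Hochberg adjustment over all genes tested. The models held the 46 IP and input libraries (15404 genes), the 28 IPs (14224), the 18 inputs (14820, with line and stress as terms) and the 8 D1 IPs of the Sirt1 table (13626). Each group had its own mean and the groups shared one estimate of spread. DESeq2 1.42.0 was an alternative. CPM are counts scaled to library size after TMM scaling within a model, so levels differ slightly between models. Permutation tests on log2 CPM with a prior count of 2 were run for Rpl22, exact where a group held under 10 libraries and with 100000 resamples where both held 10 or more. They took libraries as independent and did not use the pairing of IP and input. Figures and tables used Python 3.11.15. Steps were checked on simulated data.

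Entries that name no gene (5 in the table) held 21.5% of IP and 37.8% of input counts and were left out. Counts of 2 columns that match no sample were not used, and of 5 symbols listed 2 times in the Sirt1 table the first listing was kept. The 4 D1 Con IPs had identical counts in both tables. In 76 pairs of replicates of the same group the chi-square per gene was 3.60 to 104.3, so no library was a duplicate of another in its group. Libraries of different groups were not compared in this way. Each library is a pool of 2 mice, and p-values measure the spread between pools. Coding and transcript lengths are from GENCODE vM21, and a gene's shared windows are the 100-base windows of its transcripts found in another gene.

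IP and input with the same number come from the same homogenate by the protocol, and their deviations from group means correlated at -0.19 to 0.51 (median 0.03) in 18 pairs. Named genes were Rpl22, among genes that passed, the 5 most raised and the 5 most lowered, the 3 with the lowest p where none passed, the genes and paralogs outside the rule, up to 3 leaders of each other list, and the 5 highest and 5 lowest levels. Genes named for their role (Rps6, Rpsa, Rpl11, Rplp0, Rplp2, Rpl41) or in short lists were chosen with their values in view. One gene outside the rule is not reported here. The genes and lists were chosen with earlier results of these data known.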

Additional observations from a re-analysis of the deposited data

Results flagged for a closer look

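In groups of 4 to 10 libraries, the highest or lowest library was set against the rest by the gap to its neighbour over the range of the group (Dixon's test at the 95% level), and 5 of 49 groups stood out, where chance gives about 1 in 20. The share of counts on ribosomal protein genes was 0.782% in D2 Con 1 and 0.605% to 0.637% in the other D2 Con IPs, which bears on the D2 stress comparisons given above. Rps13 was 58.4 CPM in the same library against 41.3 to 45.8 CPM. Rpl22 was 36.6 CPM in D2 Sus 2 against 33.4 to 34.1 CPM in the other D2 Sus IPs. Rpl10 was 113 CPM in D1 Res 3 against 103 to 104.5 CPM in the other D1 Res IPs. Rps15a was 62.95 CPM in D1 Sus 2 against 74.01 to 77.6 CPM in the other D1 Sus IPs, and without that library its log2 difference between D1 and D2 IPs was 0.17 (edgeR adjusted p = 0.0111).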

How the results depend on the processing

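Alternatives were RLE size factors, total counts, TMM without these genes, no filter, a mean of at least 50 counts, DESeq2, the replicate block, Con libraries only, only the libraries compared and leaving out each library. For IP against input, the replicate block held only libraries with a partner of the same number. Other settings were chosen after seeing the data, namely leaving out D2 Con 1 and D2 Res 1 together and keeping only genes with under 10% shared windows. Of the values recomputed with 1 library left out, 3625 kept their direction and side of the threshold (or, for counts and values with no test, their size), 9 came to pass, 35 no longer passed, 20 moved and 15 changed sign. Under the other settings these numbers were 978, 2, 5, 30 and 6. The values with 1 library left out include those where that library was in neither group compared. Such a library acts only through scaling and the shared spread, so the 3625 overstate how stable the values were. The number higher in IP in the D1 line (11) became 6 in Con only, 4 with a mean of at least 50 counts or total counts, 7 with the replicate block, 1 among genes with under 10% shared windows and 0 with a fold over 1.5, and that in the D2 line (10) became 4, 4, 0 and 0 for mean count, total counts, shared windows and fold. The number lower (56 and 56) became 26 and 24 with a fold over 1.5, where 29.3% and 30.8% of all genes passed as lower. It became 13 and 13 among genes with under 10% shared windows. Leaving out 1 library gave 8 to 12 higher and 54 to 56 lower in the D1 line, 9 to 11 and 53 to 56 in the D2 line.

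For the difference between lines in IP over input, 1 gene was called under total counts (Rpl31, 0.19) and 1 without the pair of libraries (Rps15a), and 0 to 1 with 1 library left out. For D1 against D2 IP (2 genes), 0 passed with a fold over 1.5, 5 without the pair (41.4% of all genes) and 1 to 8 with 1 library left out (37.1% to 41.6%). In the libraries labelled Sirt1-KO (4 genes), 0 passed with a fold over 1.5. With 1 library left out, 0 to 4 passed (0.299% to 7.41% of all genes). The number was 5 by DESeq2 (5.44% of all genes), total counts (2.36%) or the replicate block (11.7%). At an unadjusted p under 0.05 the stress counts were 2, 2 and 2 in D1 IPs (Sus against Con, Res against Con, Sus against Res), 2 and 1 in D2 IPs (Sus against Con, Sus against Res) and 1, 1 and 2 in inputs. Values of Rpl22 that were not called changed sign: under total counts -0.0091 and -0.031 for the difference between lines in Res and in Sus against Con, -0.027 for the Sirt1 label and 0.059 for the lines in inputs, and -0.011 for Sus without the pair. Rpl23 between lines in inputs was 0.021 under total counts. With 1 library left out, Rpl22 ran from -0.10 to 0.0202 (D1 Sus against Con), -0.0323 to 0.0845 (D1 Sus against Res), -0.0171 to 0.0945 (D2 Sus against Res), 0.10 to 0.14 (D1 against D2), -0.0401 to 0.0863 and -0.0553 to 0.0703 (Res and Sus against Con between lines), -0.0459 to 0.0622 (Sirt1 label) and -0.03 to 0.0010 (lines in inputs). The causes were not tested, beyond fewer genes or samples where a setting removes them.

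Between IPs, between inputs and in the Sirt1 table, libraries shared only a number: correlations of same-numbered libraries were -0.18 to 0.31 in 66 pairs, -0.38 to 0.44 in 45 and -0.01 to 0.08 in 3. The replicate block added Rpl39 between D1 and D2 IPs and Rps7 for the Sirt1 label. Rps27, Rpl34 and Rpl30 had few counted reads, so their values are uncertain, and the reason for their low counts was not tested.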

Other observations

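Other genes of translation differed between D1 and D2 IPs in small numbers. Averaged over stress groups, 3 of 7 elongation factors were higher in D1 IPs and 0 lower by the edgeR test, with Eef1a2 at 0.13 ± 0.03 and Eef2 at 0.11 ± 0.02 on the log2 scale (SE). Of 36 initiation factors, 4 were higher and 3 lower, with Eif3a, a core subunit of initiation factor 3, at -0.46 ± 0.08 and Eif6, which keeps the subunits apart, at 0.20 ± 0.04 (SE). Of 78 mitochondrial ribosomal genes, 5 were higher and 4 lower. Of 22 assembly factors, 1 was higher and 1 lower, and of 16 other TOP mRNAs 2 and 3, with Hnrnpa1 at -0.51 ± 0.12 (SE). The background was 19.6% higher and 21.3% lower.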
